A study of Mus musculus with 11 samples.

Results

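The genes described here build the neurite and the presynaptic terminal of a postmitotic neuron, and they were measured by RNA-Seq in granule cell precursors (GCps) purified from the cerebellum at P7. The set was chosen by name and holds 41 of the 38924 genes listed in the count files. Of these, 29 act in neurite growth and the neuronal cytoskeleton (the neurite group) and 12 in presynaptic release (the presynaptic group). All 41 passed the filter on low counts and were among the 16436 genes tested.

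GCps divide in the outer layer of the postnatal cerebellum. When they leave the cell cycle they extend parallel fibers, migrate inward and form synapses on Purkinje cells. Microtubules of alpha- and beta-tubulin, the proteins that stabilize or dismantle them, and neurofilaments form the shaft of the growing axon, while growth cone and adhesion proteins steer its tip. In the terminal, vesicles are held by synapsins, directed to the active zone by Rab3 and scaffold proteins, and fused by SNARE proteins under the control of complexins. These genes are therefore read in neuroscience as markers of neuronal differentiation.

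RNA-Seq covered 2 control and 2 cko libraries on the C57Bl/6J background. The cko mice carried Math1cre;Chd7flox/flox, so that Chd7, which encodes an ATP-dependent chromatin remodeler, is deleted by a Cre active in the granule cell lineage. The control genotype is Chd7flox/+ in the sample labels and in the paper, whereas the extraction notes give floxed alleles on both chromosomes without Cre, and the labels also call these samples wild type. Cerebella of each genotype were pooled, lobules IX and X, where this Cre is little active, were removed, and a Percoll gradient was used to enrich GCps. Whether the replicates stem from separate pools of animals is not stated. The p-values cover only the spread between these libraries, which may be technical in the control pair. From 61836588 to 77346481 reads per library were assigned to genes. The gene-level count of Chd7 was 322 and 319 CPM in control and 392 and 355 CPM in cko libraries (CPM, the reads of a gene relative to the reads of its library, with libraries scaled by the trimmed mean of M values). It sums over the whole gene and does not check the deletion, so directions rest on the labels. Xist reached 793 CPM in cko replicate 1 but at most 0.548 CPM elsewhere. The Y-linked Ddx3y had no read in that library, against 63.7 to 69.1 CPM elsewhere. By these genes cko replicate 1 came from female animals and every other library from male animals. The cko libraries therefore came from different animals.

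The purified cells held RNA of both dividing and differentiating granule cells. The 15 markers fixed for GCps (among them Atoh1, Gli1 and Mki67) summed to 6774 and 7227 CPM in control and 7632 and 7892 CPM in cko libraries, and 1 of them, the cyclin gene Ccnd1, rose. The 13 markers fixed for early postmitotic granule neurons summed to 7766 and 7387 CPM in control and 5661 and 6586 CPM in cko libraries. Of these, 3 fell (Reln, Sema6a and Nhlh1). Over all tested genes 0.773% were called lower and 0.809% higher. The paper localizes Reln to GCps and reports it as regulated by CHD7, so it is not a marker of postmitotic cells alone. Fewer postmitotic cells and less RNA per cell cannot be told apart in such bulk samples.

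The RNAs of Gap43, Nefl and Nefm were lower in cko GCps, and most of the other neurite and presynaptic RNAs had estimates below 0 without passing the test. Gap43, which encodes a membrane protein of the growth cone, fell by 61.0%, and the neurofilament genes Nefl and Nefm fell by 57.8% and 53.1%. These 3 of the 41 genes passed edgeR's quasi-likelihood test at an adjusted p under 0.05, a threshold that 0.773% of all tested genes passed toward lower values. In the other direction 0 passed, against 0.809% of all tested genes. At an unadjusted p under 0.05 in the same test, 21 of the 41 were lower (6.21% of all tested genes) and 3 were higher (7.36%). With DESeq2, 17 were lower and 0 higher at an adjusted p under 0.05, beside 2.72% and 2.88% of the genes DESeq2 tested. With the shared replicate numbers as a block in edgeR, 14 were lower and 1 higher, beside 2.92% and 3.22% of all tested genes.

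The estimated change was below 0 for 38 of the 41 genes, compared with 50.1% of all tested genes and 56.1% of the 9603 tested genes that reached 10 CPM in control. The exceptions were Ncam1, Cplx2 and Syn2. Both cko libraries lay below both control libraries for 31 genes, above them for 3 and overlapped with them for 7. Among all tested genes the cko libraries lay wholly below in 21.2% and wholly above in 22.7%. The median log2 fold change of the set was -0.36, against -0.000565 for all tested genes. The members were chosen with results of these data known, so the shared direction is a description. The call was lost for each of the 3 genes without control replicate 2 (adjusted p = 0.0600 for Gap43, 0.0814 for Nefl and 0.0850 for Nefm in edgeR's test), where the count of all genes called lower went from 127 to 45. Leaving out cko replicate 2 raised the number of genes called lower from 3 to 13, adding Tubb3, Mapt, Stmn2, Elavl3, Nrcam, Vamp2, Cplx1, Syn1, Rab3a and Pclo, while the count over all tested genes went from 127 to 338.

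**Figure D1:**
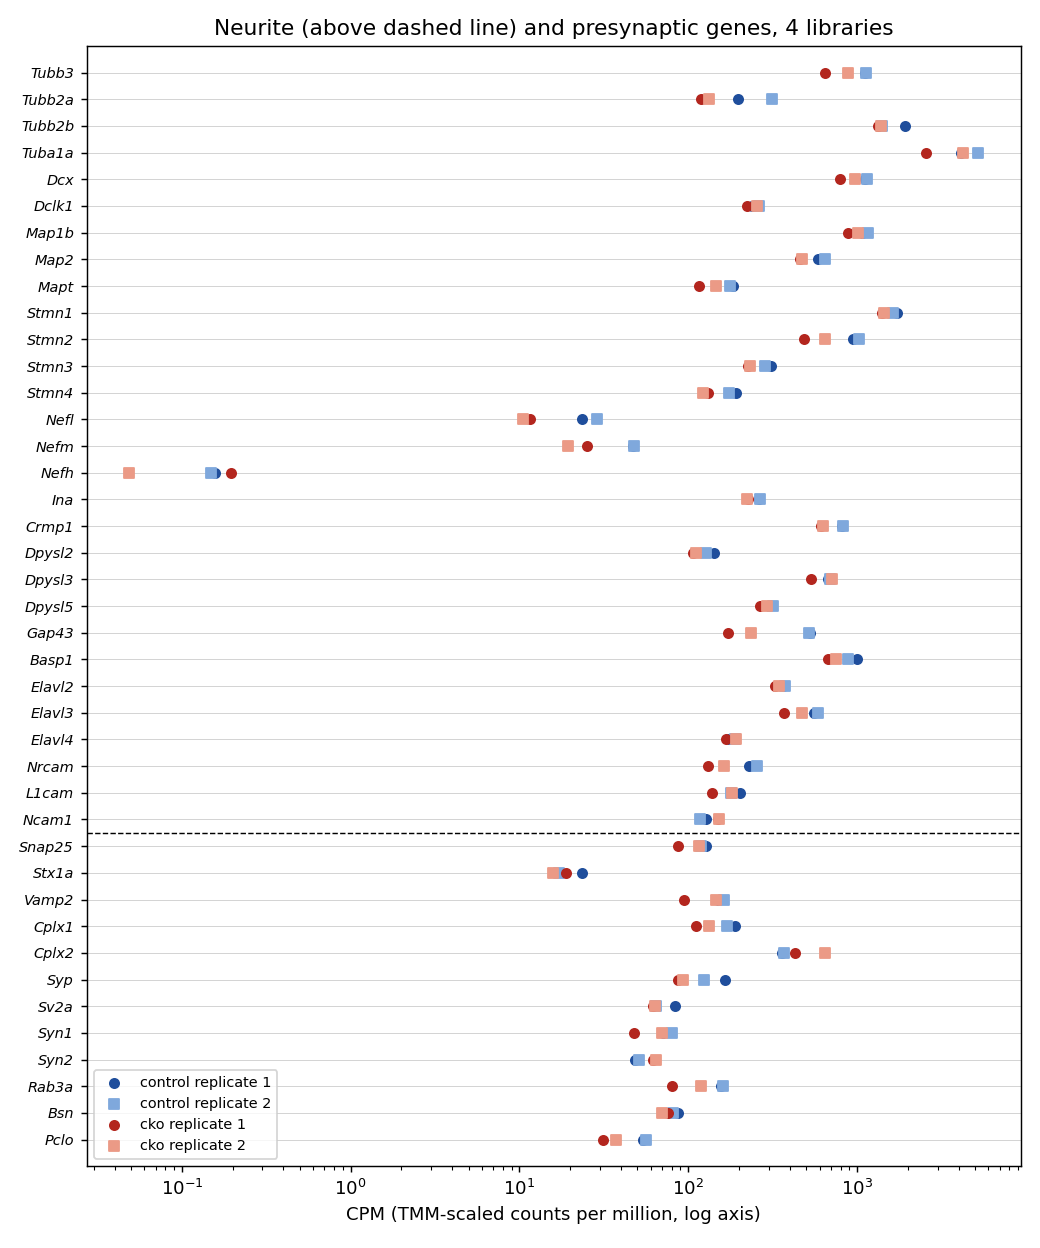
CPM (reads relative to the scaled library size, log axis) of the 41 genes in each of the 4 libraries, 1 point per library, with the neurite group above and the presynaptic group below the dashed line. The red cko points lie left of both blue control points for 31 genes, such as Gap43, and right of them for Ncam1, Cplx2 and Syn2.

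Genes just outside the threshold came from both groups. The active zone gene Pclo (adjusted p = 0.0507 in edgeR's test), the adhesion gene Nrcam (0.0517), the stathmin genes Stmn4 (0.0597) and Stmn2 (0.0628), the synaptophysin gene Syp (0.0909) and the complexin gene Cplx1 (0.0912) were all lower by estimate. Promoter windows came from RefSeq (GRCm38.p6), and Gap43, Nefl and Nefm had none there. The windows and motif shares therefore cover none of the genes of the set that passed. Windows matched 27 of the 41 genes. Shown here are the 250 bases upstream of the transcript start for the 4 of these genes with the lowest p that have a single start in that table and no annotated exon in the window, written 5′ to 3′ on the strand of the gene. Capitals mark matches, on either strand, to a TATA box (TATAAA), a GC box (GGGCGG), E-boxes (CAGCTG and CAGATG) and the core of the cAMP response element (TGACGT).

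Pclo, chr5:14514668-14514917, plus strand: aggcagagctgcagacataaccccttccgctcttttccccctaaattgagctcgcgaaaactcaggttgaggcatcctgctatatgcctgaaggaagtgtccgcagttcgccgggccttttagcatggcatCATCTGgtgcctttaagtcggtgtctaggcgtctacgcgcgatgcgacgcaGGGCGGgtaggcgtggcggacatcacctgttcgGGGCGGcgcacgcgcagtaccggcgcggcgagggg
Nrcam, chr12:44328635-44328884, plus strand: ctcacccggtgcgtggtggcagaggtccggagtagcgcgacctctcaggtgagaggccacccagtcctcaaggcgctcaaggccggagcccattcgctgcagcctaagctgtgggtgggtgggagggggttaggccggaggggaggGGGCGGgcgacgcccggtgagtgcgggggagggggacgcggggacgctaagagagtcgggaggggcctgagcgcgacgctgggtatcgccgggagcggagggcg
Tubb2a, chr13:34078009-34078258, minus strand: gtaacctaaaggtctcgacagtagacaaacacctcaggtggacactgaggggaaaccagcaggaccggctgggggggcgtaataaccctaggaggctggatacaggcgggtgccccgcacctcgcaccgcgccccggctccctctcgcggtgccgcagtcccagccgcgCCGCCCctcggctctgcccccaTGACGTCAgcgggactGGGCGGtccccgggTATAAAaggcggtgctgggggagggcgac
Stmn3, chr2:181314501-181314750, minus strand: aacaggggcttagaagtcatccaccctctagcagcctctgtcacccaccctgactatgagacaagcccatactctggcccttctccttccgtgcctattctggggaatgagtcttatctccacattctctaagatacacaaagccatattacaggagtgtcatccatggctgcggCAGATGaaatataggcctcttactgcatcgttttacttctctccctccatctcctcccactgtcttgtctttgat

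The Tubb2a window held the TATA box 29 bases before the start (position -29), GC boxes at -43 and -81, and overlapping matches to the cAMP core on both strands at -57 and -59. Pclo held GC boxes at -35 and -68 and the E-box CAGATG at -119, Nrcam a GC box at -104, and Stmn3 the E-box CAGATG at -75. Over the 27 genes with a window, 20 held the GC box (74.1%, against 62.2% of the 11914 tested genes with a window) and 4 the TATA box (14.8% against 8.05%). The E-box CAGCTG was found in 8 (29.6% against 14.7%), CAGATG in 6 (22.2% against 12.3%) and the cAMP core in 5 (18.5% against 10.9%). All 4 genes with the TATA box (Dcx, Elavl3, Map1b and Tubb2a) belong to the neurite group, and 5 of the 8 with CAGCTG (Cplx1, Cplx2, Rab3a, Stx1a and Sv2a) to the presynaptic group. The median GC content of the windows was 63.0% in the set and 59.6% in all tested genes with a window. These matches are a description of letters and no evidence of binding.

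All 4 tubulin genes, which encode the subunits of microtubules, had estimates below 0, and 0 of 4 passed in edgeR. At an unadjusted p under 0.05, 2 were lower, beside 6.21% of all tested genes. Tubb3 encodes the beta-tubulin used as a marker of young neurons. It was at 1118 and 1135 CPM in control and at 647 and 887 CPM in cko libraries (log2 fold change -0.55 with a standard error of 0.16 and an edgeR adjusted p of 0.181). Tubb2a, another beta-tubulin gene, was at 196 and 312 CPM in control and 118 and 133 CPM in cko libraries (-1.02, standard error 0.23, adjusted p = 0.132). Its estimate is the lowest after those of Gap43, Nefl and Nefm, but the control libraries differed from each other by 0.67 on the log2 scale. Without control replicate 1, Tubb2a passed with a log2 fold change of -1.31 (adjusted p = 0.00167 in edgeR's test). Tubb2b lies 48741 bp from Tubb2a on chromosome 13. It was at 1930 and 1412 CPM in control and 1328 and 1381 CPM in cko libraries, so that the lower control library stood close to the cko pair. Tuba1a, the alpha-tubulin gene with the highest level per length in the set, was at 4150 and 5215 CPM in control and 2551 and 4249 CPM in cko libraries, and its groups overlapped. Values of these tubulin genes other than Tubb3 are uncertain, since 75.5% of the 50-base stretches of Tuba1a transcripts, 49.6% of those of Tubb2a and 36.9% of those of Tubb2b also occur in transcripts of other genes.

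Of the 5 genes for proteins that bind microtubules, 0 passed in edgeR. At an unadjusted p under 0.05, 3 were lower, beside 6.21% of all tested genes. Map2, which marks dendrites, was at 586 and 648 CPM in control and at 458 and 473 CPM in cko libraries (log2 fold change -0.40 with a standard error of 0.10 and an edgeR adjusted p of 0.135). Mapt, which encodes tau, was at 185 and 177 CPM in control and 116 and 146 CPM in cko libraries (-0.47, adjusted p = 0.149 in edgeR's test). Both cko libraries lay below both control libraries for 4 of the 5 genes, all but Dclk1, beside 21.2% of all tested genes. Dcx encodes doublecortin, a protein of migrating neurons, and was at 1114 and 1154 CPM in control and 797 and 968 CPM in cko libraries. Map1b, which acts in growing axons, was at 1071 and 1169 CPM in control and 889 and 1009.9 CPM in cko libraries. Dclk1, a kinase related to doublecortin, was at 239 and 264 CPM in control and 223 and 255 CPM in cko libraries, with overlapping groups. Its estimate of -0.07 (standard error 0.11) was close to that of all tested genes.

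The 4 stathmin genes, whose products sequester tubulin and dismantle microtubules, had lower values in both cko libraries than in both control libraries. This held for 21.2% of all tested genes. In edgeR 0 of 4 passed, and 3 were lower at an unadjusted p under 0.05, beside 6.21% of all tested genes. Stmn2, the member of axons and growth cones, was at 949 and 1027 CPM in control and 488 and 647 CPM in cko libraries (log2 fold change -0.80 with a standard error of 0.15 and an edgeR adjusted p of 0.0628). Stmn4 was at 193 and 174 CPM in control and 131 and 123 CPM in cko libraries (-0.53, standard error 0.10). Stmn3 was at 311 and 285 CPM in control and 227 and 233 CPM in cko libraries (-0.37, standard error 0.10). Stmn1, which dividing cells also express, had the smallest difference of the family, from 1723 and 1641 CPM in control to 1415 and 1446 CPM in cko libraries (-0.23, standard error 0.11). The difference between the family members was not tested. With counts scaled by library totals alone, Stmn2 passed (adjusted p = 0.0497 in edgeR's test).

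Of the 4 neuronal intermediate filament genes, those of the light and medium neurofilament chains fell and the others did not pass. Nefl, the light chain (ENSMUSG00000022055, chr14:68083863-68089095 of GRCm38, plus strand), fell from 23.6 and 28.7 CPM in control to 11.5 and 10.6 CPM in cko libraries (log2 fold change -1.24 with a standard error of 0.14 and an edgeR adjusted p of 0.0183). Nefm, the medium chain (ENSMUSG00000022054, chr14:68082590-68124846, minus strand), fell from 47.3 and 47.9 CPM to 25.1 and 19.5 CPM (-1.09, standard error 0.14, adjusted p = 0.0254). Both cko libraries lay below both control libraries for 3 of the 4 genes, all but Nefh, beside 21.2% of all tested genes. Nefl and Nefm were the only genes of the set besides Gap43 to pass. Both lost the call without control replicate 2 (log2 fold changes -1.10 and -1.08, adjusted p = 0.0814 and 0.0850). The annotated exons of these neighbors overlap on opposite strands over 32.8% of the exonic length of Nefl and 19.2% of that of Nefm, so that reads there cannot be told apart if the counting ignored strand. Nefh, the heavy chain, had 12 and 9 reads in control and 15 and 3 reads in cko libraries, too few to show a difference. Ina, which encodes the internexin found in young neurons, was more abundant and was at 263 and 268 CPM in control and 227 and 222 CPM in cko libraries (-0.24, standard error 0.09, adjusted p = 0.306). In control the level of Ina was 81.9 CPM per kb of exonic length, compared with 7.74 for Nefl, 8.24 for Nefm and 0.0383 for Nefh.

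Gap43 had the lowest log2 fold change of the set. The gene (ENSMUSG00000047261) spans chr16:42248442-42340651 of GRCm38 on the minus strand. It was at 528 and 518 CPM in control and at 171 and 237 CPM in cko libraries (log2 fold change -1.36 with a standard error of 0.16 and an edgeR adjusted p of 0.0231). Both cko libraries were far below the control pair, which differed by 0.03 on the log2 scale. Basp1 encodes another protein of the growth cone membrane and had a similar level per length in control (469 CPM per kb against 344 for Gap43). It was at 998 and 888 CPM in control and 670.3 and 755 CPM in cko libraries (-0.40, standard error 0.12, adjusted p = 0.189). Without control replicate 2, Gap43 had a log2 fold change of -1.37 and an adjusted p of 0.0600 in the same test.

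**Figure D2:**
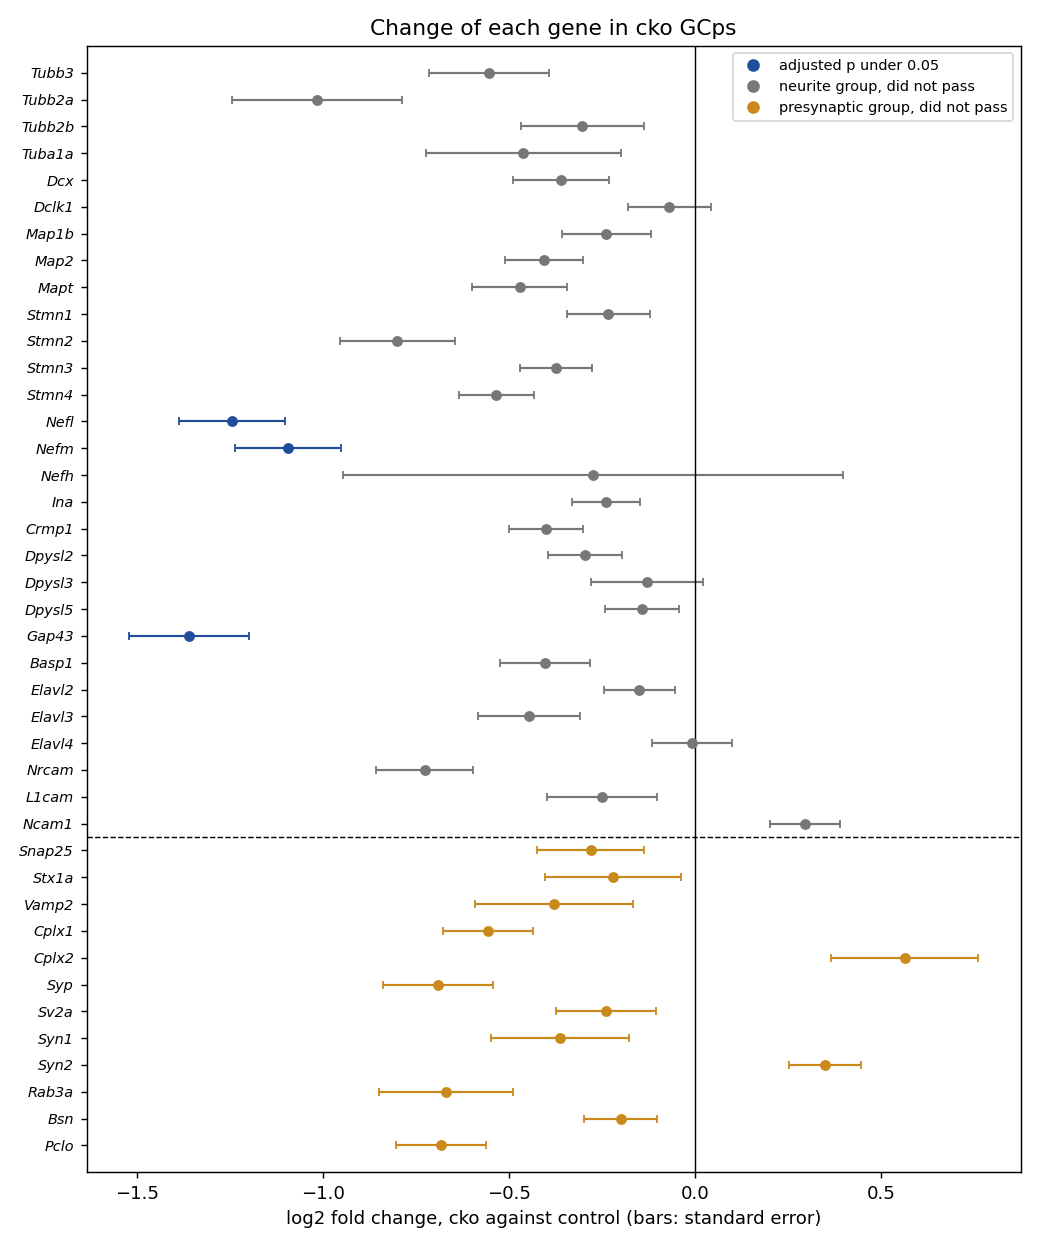
Log2 fold change between cko and control GCps for the 41 genes (points) with its standard error (bars), with the neurite group above and the presynaptic group below the dashed line. Blue marks Gap43 (-1.36), Nefl (-1.24) and Nefm (-1.09), which passed at an adjusted p under 0.05, and only Ncam1, Cplx2 and Syn2 lie right of 0.

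CRMP genes, whose products carry semaphorin signals to microtubules, were lower by estimate without passing. Crmp1 was at 815 and 825 CPM in control and 616 and 627 CPM in cko libraries (log2 fold change -0.40 with a standard error of 0.10 and an edgeR adjusted p of 0.126), with close replicates in both groups. Dpysl2, also called Crmp2, was at 141 and 127 CPM in control and 107 and 111 CPM in cko libraries. Dpysl5 was at 301 and 316 CPM in control and 267 and 292 CPM in cko libraries. Both cko libraries lay below both control libraries for these 3 genes, beside 21.2% of all tested genes. The gap for Dpysl5 was small (-0.14, standard error 0.10). Dpysl3 was at 675 and 688 CPM in control and 533 and 713 CPM in cko libraries, so its cko libraries lay on either side of the control pair. Its estimate of -0.13 turned to 0.074 without cko replicate 1.

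The 3 neuronal ELAV-like genes encode RNA-binding proteins that stabilize neuronal mRNAs. Elavl3 was at 553 and 589.7 CPM in control and 368 and 470.2 CPM in cko libraries (log2 fold change -0.45 with a standard error of 0.14 and an edgeR adjusted p of 0.203). Elavl2 was at 367 and 377 CPM in control and 327 and 343 CPM in cko libraries (-0.15, standard error 0.09). Elavl4, which encodes HuD, was at 175 and 188 CPM in control and 168 and 193 CPM in cko libraries. Its groups overlapped and its estimate was -0.01 (standard error 0.11), with a sign that turned under other scalings (0.0091 with upper quartile factors and 0.037 with library totals). Adhesion genes had estimates of both signs, and 0 of 3 passed in edgeR. At an unadjusted p under 0.05, 1 was lower (Nrcam) and 1 higher (Ncam1), beside 6.21% and 7.36% of all tested genes. Nrcam, which encodes an axonal adhesion molecule of the L1 family, was at 229 and 257 CPM in control and 132 and 162 CPM in cko libraries (-0.73, standard error 0.13, adjusted p = 0.0517). L1cam was at 202 and 178 CPM in control and 138 and 181 CPM in cko libraries, with overlapping groups. Ncam1, the neural cell adhesion molecule gene, was at 128 and 118 CPM in control and 149 and 153 CPM in cko libraries (0.29, standard error 0.09, adjusted p = 0.223), and it was the only gene of the neurite group with an estimate above 0. With library totals alone as scaling, Nrcam passed (adjusted p = 0.0446 in edgeR's test).

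In the presynaptic group 0 of 12 genes passed, beside 0.773% of all tested genes lower and 0.809% higher, and their estimates had both signs. At an unadjusted p under 0.05 in edgeR, 4 were lower (Cplx1, Pclo, Rab3a and Syp) and 2 higher (Cplx2 and Syn2), beside 6.21% and 7.36% of all tested genes. With DESeq2, Cplx1, Pclo, Rab3a and Syp were lower at an adjusted p under 0.05, beside 2.72% of the genes DESeq2 tested. The SNARE genes, whose products pull vesicle and plasma membranes together, were lower by estimate. Snap25 was at 128 and 119 CPM in control and 87.5 and 116 CPM in cko libraries. Vamp2, the vesicle SNARE, was at 151 and 163 CPM in control and 94.5 and 147 CPM in cko libraries. In both, cko replicate 2 stood near the control libraries. Stx1a, the syntaxin of the plasma membrane, was at 23.4 and 17.1 CPM in control and 18.9 and 15.8 CPM in cko libraries, with overlapping groups.

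The complexin genes, which clamp and then promote fusion by SNARE complexes, had estimates of opposite sign. Cplx1 was at 189 and 171 CPM in control and 111 and 134 CPM in cko libraries (log2 fold change -0.56 with a standard error of 0.12 and an edgeR adjusted p of 0.0912). Cplx2 was at 359 and 371 CPM in control and 428 and 650.1 CPM in cko libraries (0.56, standard error 0.20, adjusted p = 0.284). Every cko library was below the control pair for Cplx1 and above it for Cplx2, but the opposite direction was not tested as a difference between the genes. The cko libraries differed by 0.60 for Cplx2 on the log2 scale, more than the estimated change. Without cko replicate 1, Cplx2 passed toward higher values (log2 fold change 0.84, adjusted p = 0.0149). In control both genes had about the same level per length (82.2 CPM per kb for Cplx1 and 74.1 for Cplx2). In cko libraries the means were 55.9 and 109 CPM per kb.

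Vesicle protein genes also had estimates of both signs, and 0 of 5 passed in edgeR. At an unadjusted p under 0.05, 2 were lower (Syp and Rab3a) and 1 higher (Syn2), beside 6.21% and 7.36% of all tested genes. Syp, which encodes the vesicle protein synaptophysin, was at 166 and 124 CPM in control and 86.6 and 93.0 CPM in cko libraries (log2 fold change -0.69 with a standard error of 0.15 and an edgeR adjusted p of 0.0909). Rab3a, the vesicle GTPase, was at 157 and 159.8 CPM in control and 80.7 and 119 CPM in cko libraries (-0.67, standard error 0.18, adjusted p = 0.163). Syn1, a synapsin gene, was at 71.2 and 79.8 CPM in control and 47.7 and 69.7 CPM in cko libraries. Both cko libraries lay below both control libraries for 4 of the 5 genes, all but Syn2, beside 21.2% of all tested genes. Syn1 in cko replicate 2 was close to control replicate 1. The other synapsin gene, Syn2, had the opposite direction, from 48.1 and 51.0 CPM in control to 61.7 and 64.5 CPM in cko libraries (0.35, standard error 0.10, adjusted p = 0.160), and no library of one genotype reached the other. Sv2a was at 83.5 and 64.8 CPM in control and 61.7 and 63.9 CPM in cko libraries, where control replicate 2 stood next to the cko pair. Of the exonic length of Syp, 16.8% overlaps Gm14703 on the other strand.

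Of the scaffolds of the active zone, where vesicles dock, Pclo came closest to the threshold among the genes that did not pass. Pclo, which encodes piccolo, was at 54.3 and 56.5 CPM in control and 31.5 and 37.6 CPM in cko libraries (log2 fold change -0.68 with a standard error of 0.12 and an edgeR adjusted p of 0.0507). Bsn, which encodes the related bassoon, was at 86.8 and 80.9 CPM in control and 76.0 and 69.9 CPM in cko libraries (-0.20, standard error 0.10, adjusted p = 0.465). For both genes the cko libraries lay below both control libraries, as for 21.2% of all tested genes, and the gap was wider for Pclo.

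Both groups of genes had medians below 0, and all called genes were in the neurite group. The median log2 fold change was -0.37 over the 29 neurite genes (range -1.36 to 0.29) and -0.32 over the 12 presynaptic genes (range -0.69 to 0.56). Both cko libraries lay below both control libraries for 22 of 29 neurite and 9 of 12 presynaptic genes, beside 21.2% of all tested genes. By role, the medians were -0.88 for the growth cone membrane genes, -0.68 for the neurofilament genes, -0.51 for the tubulins, -0.45 for the stathmins, -0.44 for the active zone scaffolds and -0.36 for both the microtubule-associated and the vesicle protein genes. They were -0.28 for the SNARE genes, -0.25 for the adhesion genes, -0.22 for the CRMP genes, -0.15 for the ELAV-like genes and 0.00290 for the complexins. These roles hold 2 to 5 genes each, and no difference between the groups or roles was tested.

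Summed over its members, the neurite group was at 19211 and 20027 CPM in control and 13299.8 and 16439 CPM in cko libraries. The presynaptic group was at 1518 and 1458 CPM in control and 1186 and 1579.5 CPM in cko libraries, so its summed level in cko replicate 2 was above that of both control libraries. The mean of this sum was lower by 7.05% in cko, compared with 24.2% for the neurite group. Without Cplx2, the most abundant gene of the presynaptic group, the presynaptic sum was 1158 and 1087 CPM in control and 758 and 929 CPM in cko libraries, and its mean was lower by 24.8%. Leaving out Tuba1a, the most abundant gene of the neurite group, changed the percentage there from 24.2% to 23.2%.

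**Figure D3:**
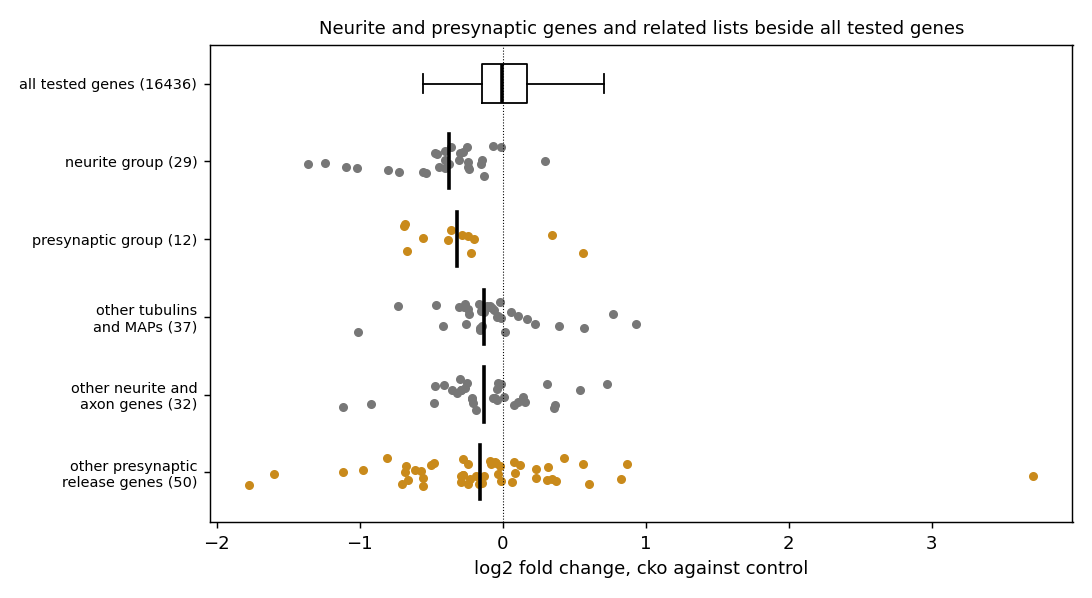
Log2 fold change between cko and control GCps for the neurite group (median -0.37), the presynaptic group (-0.32) and the lists of other genes of these pathways, 1 point per gene with black bars at the medians and the number of genes in parentheses. The box for the 16436 tested genes spans the middle 50% with whiskers to the 5th and 95th percentiles, and its median lies at 0 while those of the gene groups lie left of it.

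The level per length ranged widely in the set. In control GCps the median was 81.9 CPM per kb in the neurite group and 20.5 in the presynaptic group, compared with 4.08 over all tested genes. Tuba1a (2597), Stmn1 (875), Tubb2b (729), Tubb3 (603) and Basp1 (469) had the highest control levels per kb, and in the presynaptic group Cplx1, Cplx2 and Rab3a (71.1) led. Lowest were Nefh, Pclo (2.47) and Bsn (5.26). Spearman's rho between the control level per kb and the log2 fold change was -0.21 across the 41 genes, which share libraries and are not independent. Across the same genes rho was 0.29 between the length of the gene and the log2 fold change.

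**Figure D4:**
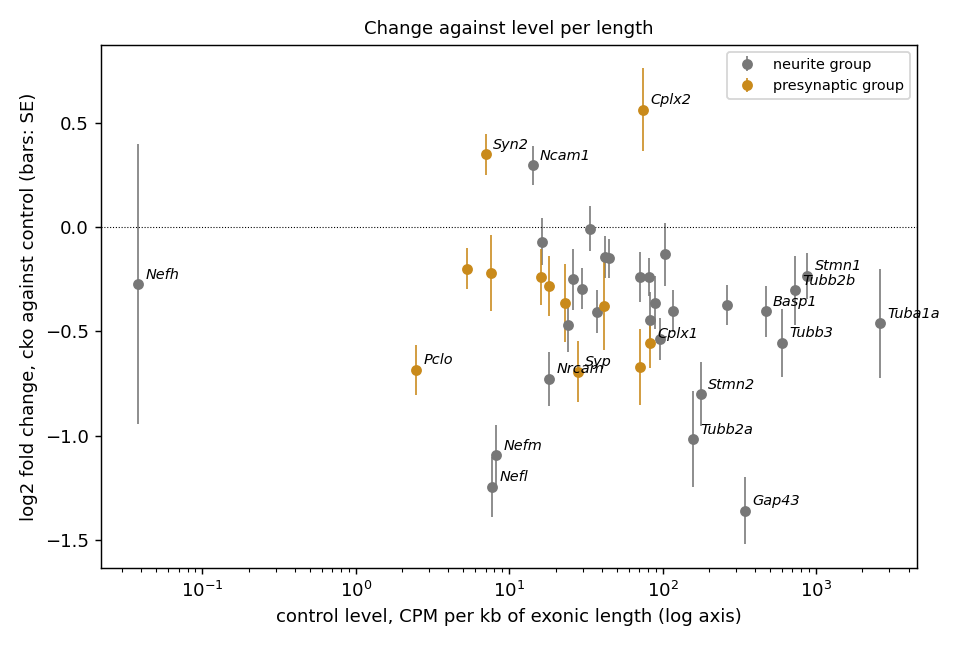
Log2 fold change between cko and control GCps with its standard error (vertical axis) against the control level in CPM per kb of exonic length (horizontal axis, log scale), 1 point per gene. Changes below -1 occur near 8 CPM per kb (Nefl, Nefm) as well as above 100 (Tubb2a, Gap43), and Nefh at 0.0383 has the widest bar.

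The cko libraries differed from each other in the depth of the change. Cko replicate 1 was below cko replicate 2 for 34 of the 41 genes, compared with 49.3% of all tested genes, and the median deviation from the control mean was -0.46 in cko replicate 1 and -0.27 in cko replicate 2 on the log2 scale. In the presynaptic group these medians were -0.58 and -0.23, and in the neurite group -0.43 and -0.28. The 4 neurofilament genes went the other way, with lower values in cko replicate 2. On the log2 scale, replicate 2 minus replicate 1 was -0.12 for Nefl, -0.37 for Nefm and only -0.03 for Ina. Nefh had just 15 and 3 reads in cko replicates 1 and 2. The difference between replicates of a genotype was larger than the estimated change for 13 genes, among them Tuba1a, Vamp2, Syn1 and Cplx2. Cko replicate 1 is the library that expressed Xist. The 4 genes on the X chromosome (Dcx, L1cam, Syn1 and Syp) were all lower in it than in cko replicate 2, as were 30 of the 37 autosomal genes. The 10 immediate early and dissociation genes summed to 1592 CPM in cko replicate 1 and to 2953, 3179 and 2987 CPM in control replicates 1 and 2 and cko replicate 2. The part of the Xist difference and of these genes in the difference was not tested.

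**Figure D5:**
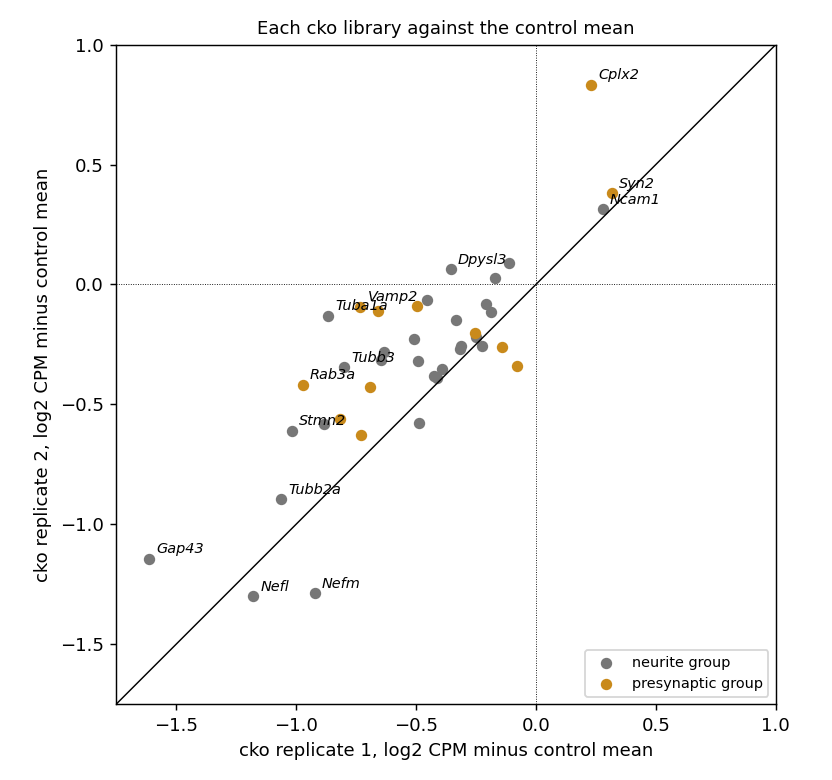
Log2 CPM minus the control mean in cko replicate 1 (horizontal axis) and cko replicate 2 (vertical axis), 1 point per gene, for the 40 genes other than Nefh. The diagonal marks equal values. Most points lie above it and left of 0, so that the values are lower in cko replicate 1, while Nefl and Nefm lie below it.

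Estimates were also mostly below 0 among other genes of the same pathways, in 75.7%, 68.8% and 68.0% of the 3 lists that follow. Of 37 other tubulins and microtubule-associated genes, 1 fell, the tubulin polymerization gene Tppp3, from 64.2 and 61.7 CPM to 30.7 and 31.9 CPM (log2 fold change -1.01 and edgeR adjusted p = 0.0129), and 36 did not pass (median -0.13). Of 32 other genes of neurite growth and the axon, 1 fell, 1 rose and 30 did not pass (median -0.13). Nav3, which encodes a protein at microtubule tips, fell from 36.5 and 40.5 CPM to 17.1 and 18.4 CPM (-1.12, adjusted p = 0.0134). Dpysl4, the CRMP gene outside the set, rose from 109 and 113 CPM to 199 and 171 CPM (0.73, adjusted p = 0.0360).

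Of 50 other genes of presynaptic release, 4 fell, 0 rose and 46 did not pass (median -0.15), against a background of 0.773% lower and 0.809% higher. At an unadjusted p under 0.05, 13 of the 50 were lower and 5 higher, beside 6.21% and 7.36% of all tested genes. The endophilin gene Sh3gl2, which acts in vesicle retrieval, fell from 187 and 204 CPM to 101 and 122 CPM (log2 fold change -0.81 and edgeR adjusted p = 0.0364). Unc13c, a vesicle priming gene, fell from 2.69 and 3.20 CPM to 0.856 and 1.09 CPM (-1.60, adjusted p = 0.0390), and the liprin gene Ppfia2 fell from 101 and 98.1 CPM to 67.3 and 54.7 CPM (-0.70, adjusted p = 0.0475). Over the 3 lists together 7 of 119 genes passed, 6 lower and 1 higher, beside 0.773% and 0.809% of all tested genes. This number moved when a library was left out, as did the number over all tested genes.

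Markers of other cells that the gradient could hold moved with the genotype in part. Muscle markers, 10 of 10 higher by estimate, summed to 10.8 and 8.05 CPM in control and 36.6 and 74.7 CPM in cko libraries, and 5 rose, with the lowest p for Myog. Oligodendrocyte markers summed to 413 and 365 CPM in control and 449 and 469.7 CPM in cko libraries, where Olig2 rose, and endothelial markers summed to 292 and 254 CPM in control and 389 and 399.6 CPM in cko libraries, where 0 of 9 passed in edgeR but 8 were higher at an unadjusted p under 0.05. Of the neurons other than granule cells, which also express the genes described here, Purkinje cell markers summed to 233 and 237 CPM in control and 217 and 231 CPM in cko libraries, of which 6 of 8 had estimates above 0. Without Lhx1, the most abundant of them, the Purkinje sums were 75.5 and 83.0 CPM in control and 102 and 100.1 CPM in cko libraries. GABAergic interneuron markers summed to 83.3 and 105 CPM in control and 108 and 119.7 CPM in cko libraries. Of these, 0 of 8 and 0 of 9 passed in edgeR. At an unadjusted p under 0.05, 1 Purkinje marker was lower and 2 higher, and 1 interneuron marker was lower and 1 higher. Of the 11 Purkinje markers listed, Pcp2, Skor2 and Shh did not pass the filter on low counts. No marker of these lists was at 0 in all 4 libraries. Of 11 tested markers of mature granule neurons, 2 fell (Cadps2 and Kcnd2) and 9 did not pass, with sums of 874 and 812 CPM in control and 321 and 418 CPM in cko libraries. Cadps2 made up much of that sum, which was 416 and 385 CPM in control and 261 and 326 CPM in cko libraries without it. Of these 11 markers, 6 had estimates above 0 (median 0.03). The highest was that of Grin2c, at 1.10 and 2.59 CPM in control and 23.0 and 15.5 CPM in cko libraries. Its log2 fold change was 3.40, with a standard error of 0.48 and an edgeR adjusted p of 0.0566. Astrocyte and Bergmann glia markers summed to 1066 and 1133 CPM in control and 923 and 906 CPM in cko libraries, with 0 of 10 called in edgeR and 4 lower at an unadjusted p under 0.05. Unipolar brush cell markers summed to 147 and 154 CPM in control and 153 and 173 CPM in cko libraries. Microglia markers summed to 351 and 314 CPM against 333 and 351 CPM. Markers of mural cells and fibroblasts together summed to 193 and 166 CPM against 183 and 222 CPM. These 3 lists had 0 called genes in edgeR, with 3, 0 and 0 at an unadjusted p under 0.05. Among all tested genes, 6.21% were lower and 7.36% higher at an unadjusted p under 0.05 in edgeR, and 0.773% and 0.809% were called. The part of these cell types in the values of the neurite and presynaptic genes was not tested.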

How the data were processed

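The authors deposited unnormalized read counts, whole numbers for each Ensembl gene, 1 file per library and no unassigned line. According to the methods and the submitters' processing notes, reads were trimmed with Trim Galore 0.4.1, aligned to mm10 with TopHat2 2.0.14 and counted with HTSeq 0.6.1p1 in intersection-strict mode. Reads of low alignment quality were skipped, which lowers the counts of genes with near-identical copies. Whether counting used strand is not given in the sources. Names, coordinates and exonic lengths come from GENCODE vM21 on GRCm38 (mm10), which matched 37607 of 38924 genes. The paper counted reads with a different annotation release, from Ensembl. Exonic lengths and overlaps given here may therefore differ from those used in counting. Low counts were removed with filterByExpr, TMM factors were applied, and the robust quasi-likelihood test of edgeR 4.0.16 (R 4.3.3) compared the genotypes, with Benjamini-Hochberg adjustment over 16436 genes and a threshold of 0.05. DESeq2 1.42.0, other scalings, no filter, a replicate block and leaving out each library were tried as alternatives. With 2 libraries per genotype, the smallest p of an exact permutation test is 0.333. Standard errors were obtained as the absolute log2 fold change over the root of the F statistic. The 41 genes, the lists and the rule for named genes (all 41, up to 4 called genes per pathway list, up to 3 called genes and the most abundant per marker list, with fewer printed for the marker lists) were chosen with earlier results of these data known. ATAC-Seq and H3K4me1 ChIP-Seq samples were not analysed here. Of the called genes on the list of other presynaptic release genes, 1 is not reported here. Sums without the most abundant gene and the values of Grin2c were added after the values were seen.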

Additional observations from a re-analysis of the deposited data

How the results depend on the processing

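The number of genes of the set called lower, 3 in the main test, was 5 with library totals as scaling, 11 without the filter on low counts, 17 with DESeq2 and 14 with the replicate block, where 1 gene, Syn2, was also called higher. It ranged from 0 (without control replicate 2) to 13 (without cko replicate 2) when a library was left out, and the number called higher from 0 to 1 (Cplx2, without cko replicate 1). Over all tested genes the count of 260 became 727 without the filter, 891 with DESeq2, 1010 with the replicate block and 83 to 602 with a library left out. For the other pathway genes the count of 7 became 16, 22 and 22 under those 3 settings and 2 to 18 with a library left out. The medians of both groups of genes stayed below 0 under every alternative run, from -0.43 to -0.27 in the neurite group and from -0.58 to -0.23 in the presynaptic group with a library left out. Signs turned for 5 genes that did not pass under those settings. With a library left out, the log2 fold change ranged from -0.17 to 0.034 for Dclk1 (0.00268 without control replicate 2), from -1.60 to 0.34 for Nefh, from -0.35 to 0.074 for Dpysl3, from -0.43 to 0.020 for Stx1a and from -0.11 to 0.10 for Elavl4. Elavl4 was also above 0 with upper quartile factors (0.0091) and library totals (0.037). The replicate numbers are shared by the groups, but nothing says that they mark a litter or day. Libraries with the same number deviated together with a correlation of 0.29 over genes, and with 2 pairs this does not establish a pairing. A fit with 1 library in a group assumes that it varies like the other group. The cause of these differences was not tested.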
